A study of Mus musculus with 6 samples.

Results

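The S100 genes encode small calcium-binding proteins, and 8 of them were examined here in mouse bone marrow cultures that grow into dendritic cells (DC): S100a8, S100a9, S100a4, S100a6, S100a10, S100a11, S100a13 and S100a1. They were chosen by gene symbol from the 19057 named genes of the array, with earlier results of these data known. Each was read by the only probe that carries its symbol, so no second probe checks any of them. C57BL/6 marrow cells were grown in GM-CSF (20 ng/ml), a growth factor of myeloid cells, and in either SB202190, an inhibitor of p38 MAP kinases that the labels give as 1.5 mM, or the solvent DMSO at 0.1%. RNA was taken after 2 days (pre-DC), from the semi-adherent cells of day 7 (immature DC), and from such cells kept for a further 48 h with 10 ng/ml of TNF-a and of IL-1b, both inflammatory cytokines (mature DC). Whether SB202190 stayed on during maturation is not stated in the labels. Each of the 6 combinations of stage and treatment had 1 array, so each treatment was read on 3 arrays and each stage on 2. All 8 genes were detected on all 6 arrays, with a detection p of 0 in every case.

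S100 proteins carry a pair of EF-hand motifs, helix-loop-helix folds that mostly bind calcium, and work as dimers that change the activity of other proteins. S100A8 and S100A9 pair as calprotectin, an abundant protein of the neutrophil and monocyte cytosol that withholds metal ions from microbes and, once released, signals through the receptors TLR4 and RAGE. Other members act inside the cell: S100A10 and S100A11 bind annexins at membranes, S100A4 binds non-muscle myosin, and S100A13 takes part in the export of proteins that lack a signal peptide. Most S100 genes lie in 1 cluster on mouse chromosome 3, which holds all 8 genes described here.

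On the chromosome, S100a8 and S100a9 were neighbours among the S100 genes looked up, as were S100a1 and S100a13 and also S100a11 and S100a10. The first pair fell at both steps of the culture and the second rose at the first step, so the bases just upstream of their start sites are shown. All sequences are from RefSeq on GRCm38.p6, read 5′ to 3′ on the strand of the gene, and capitals mark matches to the motifs TATAAA (the core promoter box of that name) and TTNNGNAA (a C/EBP-type site), searched on both strands. The C/EBP-type match shown in S100a9 reads that way on the opposite strand. The S100a8 and S100a9 stretches end at the last base before the start site (chr3:90668931-90669070, plus strand, and chr3:90695722-90695861, minus strand). The S100a1 stretch (chr3:90514331-90514434, minus strand) is the whole interval of 104 bases between the start sites of S100a1 and S100a13, which point away from each other.
S100a8: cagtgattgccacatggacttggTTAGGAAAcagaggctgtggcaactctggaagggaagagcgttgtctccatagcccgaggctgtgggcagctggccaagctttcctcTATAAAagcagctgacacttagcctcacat
S100a9: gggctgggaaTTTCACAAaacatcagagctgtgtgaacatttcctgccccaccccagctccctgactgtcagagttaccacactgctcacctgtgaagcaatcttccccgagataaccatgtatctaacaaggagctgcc
S100a1: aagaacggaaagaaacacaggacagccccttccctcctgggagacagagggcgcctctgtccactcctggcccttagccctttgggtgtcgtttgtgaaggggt

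In S100a8, TATAAA began 30 bases upstream of the start site and TTAGGAAA 117 bases upstream. In S100a9, TTTCACAA began 130 bases upstream, a further C/EBP-type match at 236 bases, and TATAAA at base 1 of the annotated transcript. Promoter windows of 300 bases were available for 7 of the 8 genes. Besides S100a8 and S100a9, S100a4 held TATAAA (31 bases upstream), and no other of the 7 windows held TATAAA or TTNNGNAA. The S100a11 window held no TATAAA but 3 matches to GGGCGG (GC box) and 2 to TGANTCA (AP-1 site), and S100a9 had 1 GGGCGG. Over all 32851 promoter windows of that length, 13.6% held TATAAA, 40.7% TTNNGNAA, 35.7% GGGCGG and 7.8% TGANTCA. The motif letters describe the windows and were not tied to binding in these cells.

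Markers gave the setting for these genes. The summed intensity of 21 neutrophil and granule markers ran from 282272 to 307936 on the pre-DC arrays, from 30491 to 41602 on the immature DC arrays and from 26708 to 27938 on the mature DC arrays. DC markers had a sum of 31013 to 41086 in pre-DC (8 of 12 detected), 87893 to 105976 in immature DC (11 detected) and 97918 to 120654 in mature DC (10 detected), with Flt3, a growth factor receptor of DC progenitors, detected on no array. Of the 6 stromal markers, 0 were detected in pre-DC and at most 2 on any other array. B cell and erythroid markers had sums of at least 1752 and 2789 in pre-DC and of at most 102 and 472 later. Macrophage markers had sums of 30509 to 38533 in pre-DC, 60878 to 62926 in immature DC and 67059 to 78163 in mature DC. The gene Lyz2 carried most of this sum on every array. It passed at neither step (0.29, SE 0.15, limma adjusted p = 0.149, and 0.10, SE 0.15, limma adjusted p = 0.667). Of the 8 macrophage markers tested, 6 rose from pre-DC to immature DC and 0 fell (median 2.34, beside 1.80 for DC markers). The test called 25.6% of all genes higher and 25.5% lower at that step. The genes H2-Ab1 and Cd74 carried most of the DC marker sum on every array. Of the 11 DC markers tested, 10 rose from pre-DC to immature DC, beside the same 25.6% of all genes. From immature to mature DC 1 rose, the chemokine gene Ccl22 (1.89, SE 0.30, limma adjusted p = 0.0114), and 1 fell, the lectin gene Cd209a. These counts were near the share over all genes, 10.5% called higher and 11.1% lower.

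S100a8 and S100a9 fell at both steps of the culture. S100a9, the larger calprotectin subunit, fell 2.62-fold from pre-DC to immature DC and a further 3.19-fold to mature DC, which made 8.36-fold in all. S100a8, the smaller subunit, fell 1.47-fold and then 2.26-fold, 3.33-fold in all. Among all 9221 genes tested, those detected on at least 2 arrays, 1.54% had a change over the whole course as low as that of S100a9 or lower, and 6.38% for S100a8. In a bulk culture, fewer cells that carry a transcript and less transcript per cell cannot be told apart.

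For S100a9, the normalized log2 intensity was 14.69 with DMSO and 14.75 with SB202190 in pre-DC, 13.47 and 13.18 in immature DC, and 11.67 and 11.64 in mature DC. The 3 stages did not overlap, and the gap between the 2 arrays of a stage was 0.29 or less. The fitted step from pre-DC to immature DC was -1.39 (SE 0.14, limma adjusted p = 0.00102), and that from immature to mature DC was -1.67 (SE 0.14, limma adjusted p = 0.0024). Both calls stood in all alternatives, including those that left out single arrays.

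The S100a8 probe gave 15.13 with DMSO and 15.10 with SB202190 in pre-DC, 14.79 and 14.32 in immature DC, and 13.39 and 13.37 in mature DC. Its stages were also in falling order without overlap, with the widest gap between arrays, 0.47, in immature DC. The first step was -0.56 (SE 0.16, limma adjusted p = 0.0318) and the second -1.17 (SE 0.16, limma adjusted p = 0.00787). The first call was lost with 75th percentile scaling in place of quantile normalization (-0.41, adjusted p = 0.0739), without the detection filter (adjusted p = 0.0522) and without the pre-DC SB202190 array (-0.45, adjusted p = 0.143) or the immature DC SB202190 array (-0.34, adjusted p = 0.266). The second was lost without the immature DC DMSO array (-0.95, adjusted p = 0.0577) or the mature DC DMSO array (-1.06, adjusted p = 0.053).

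The deposited intensity of S100a8 was 38857 and 40108 on the pre-DC arrays, 77.4% and 78.8% of the brightest probe of each array, and it ranked 23rd and 25th of 45281 probes. In mature DC it was 9620 and 9135, or 22.6% and 21.8% of the brightest probe. The S100a9 probe went from 55.8% and 59.0% of the brightest probe in pre-DC to 6.74% and 6.39% in mature DC. Whether bright spots near the top of the scale understate the fall of S100a8 was not tested.

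Most neutrophil and granule genes fell further than the calprotectin genes. Of the 20 such markers tested, 18 fell from pre-DC to immature DC and 2 rose. The test called 25.5% of all genes lower and 25.6% higher at that step. The marker median was -3.31 beside 0.00 over all tested genes, and 17 lay below S100a9. At that step Mpo, the myeloperoxidase of primary granules, changed by -5.45 (SE 0.20), Elane, neutrophil elastase, by -5.68 (SE 0.13), and Camp, the cathelicidin of secondary granules, by -3.33 (SE 0.12), each with a limma adjusted p under that of S100a9. From immature to mature DC 14 fell and 2 rose (median -1.74), with 13 of 20 below S100a8 and 10 below S100a9. Over all genes 11.1% were called lower at this second step and 10.5% higher. The 2 that rose there were Hp (2.31, SE 0.13, limma adjusted p = 0.00107) and Mmp9 (1.40, SE 0.22, limma adjusted p = 0.0107). Monocyte markers, whose cells also carry calprotectin, had sums of 21779 to 23624 in pre-DC, 7121 to 11671 in immature DC and 11880 to 16554 in mature DC. These sums did not speak for every gene: at the first step 3 of the 6 monocyte markers tested rose (Ccr2, F13a1 and Fn1) and 3 fell (Ly6c1, Vcan and Ms4a3), with a median of 1.05. The part of these markers in the fall of S100a8 and S100a9 was not tested. The 2 neutrophil and granule markers that rose at the first step, Stfa1 and Stfa2, are stefin protease inhibitors of a gene family with close relatives. How specific their probes are was not tested. These differences between genes were not tested against each other, and the list was chosen with earlier results of these data known.

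**Figure D1:**
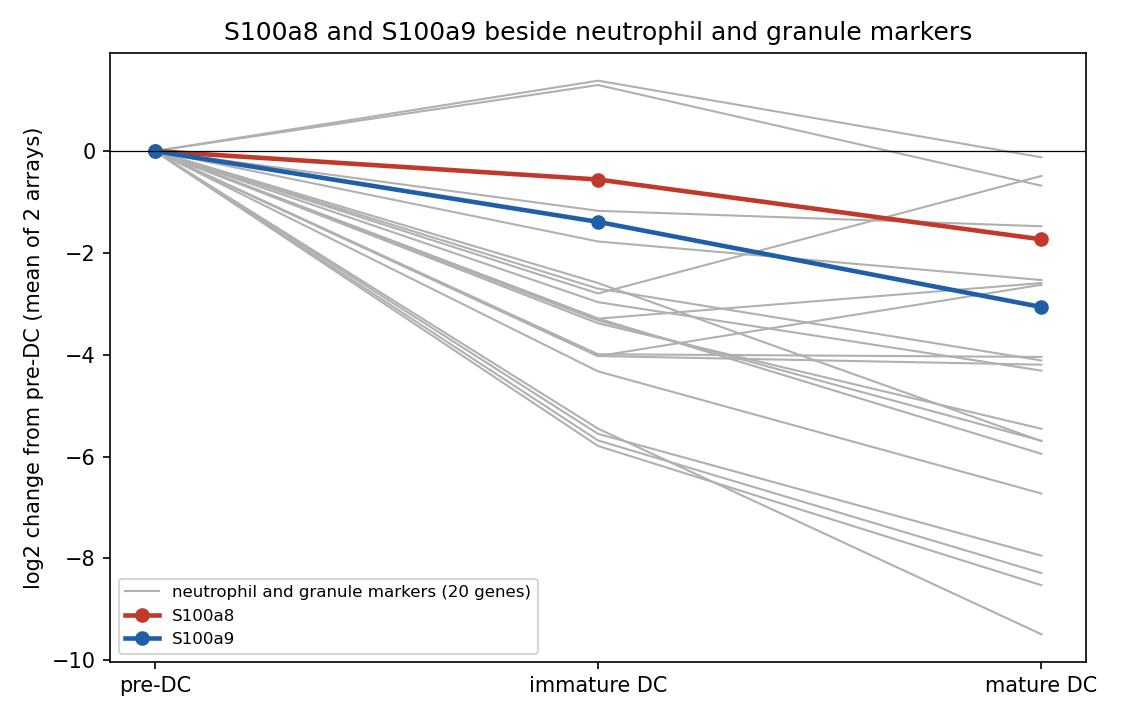
Change in normalized log2 intensity from pre-DC (y axis, mean of the 2 arrays of a stage, log2 units) across the 3 stages (x axis) for S100a8 (red), S100a9 (blue) and 20 neutrophil and granule markers (grey lines). S100a8 ends at -1.73 and S100a9 at -3.06, while the grey lines end between -9.49 and -0.12.

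A further 4 S100 genes went the opposite way at the first step. S100a1, S100a10, S100a4 and S100a13 rose from pre-DC to immature DC, by 3.29-fold, 2.65-fold, 1.88-fold and 1.46-fold, while S100a6 and S100a11 did not pass. With S100a8 and S100a9, 6 of the 8 genes were called at an adjusted p of 0.05, 4 higher and 2 lower, where the test called 51.0% of all genes, 25.6% higher and 25.5% lower. The share among these genes is thus read against a step at which about every other gene changed, and their median was 0.35 beside 0.00 over all genes. Both immature DC arrays lay above both pre-DC arrays for 5 of the 8 genes (39.0% of all genes) and below them for 2 (39.8%).

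S100a10 encodes the partner of annexin A2 in a complex that links membranes to actin, and unlike its relatives it does not bind calcium. Its log2 intensity was 9.38 with DMSO and 9.59 with SB202190 in pre-DC, 10.91 and 10.87 in immature DC, and 10.53 and 10.77 in mature DC. Pre-DC was low on both arrays, and the later stages stayed apart by less: immature DC was above mature DC on both arrays. The rise of 1.41 (SE 0.14, limma adjusted p = 8.80e-04) stood in all alternatives, and the change of -0.25 to mature DC (SE 0.14, limma adjusted p = 0.252) did not pass.

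Anxa2 itself, the annexin that binds S100A10, was 14.22 and 14.44 in pre-DC, 14.45 and 14.43 in immature DC and 14.63 and 14.60 in mature DC, with no call at either step (0.11 and 0.18, both SE 0.13). Ahnak, a very large scaffold protein that binds the same complex, rose at the first step by 1.55 (SE 0.15, limma adjusted p = 8.86e-04). S100a10 and Ahnak thus both passed as higher at that step, where Anxa2 did not, but these genes were not tested against each other.

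S100a11, whose protein binds annexin A1, changed least among the 8 genes from pre-DC to mature DC. Its values were 14.58 and 14.41 in pre-DC, 14.65 on both immature DC arrays, and 14.72 and 14.66 in mature DC. The immature DC values are equal because the probe had the same rank, 74th, on both arrays before quantile normalization. Neither step passed (0.16, SE 0.13, and 0.04, SE 0.13), nor did the whole course (0.20, SE 0.13, limma adjusted p = 0.221), but with 75th percentile scaling the whole course was 0.51 and passed (limma adjusted p = 0.0142). The probe stood at 45.2% to 57.9% of the brightest probe on every array.

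Anxa1, an annexin known for resolving inflammation, passed at both steps, where its partner S100a11 passed at neither. It fell by 0.68 on the log2 scale at the first step (SE 0.13, limma adjusted p = 0.00726) and by 0.49 at the second (SE 0.13, limma adjusted p = 0.0453). Over the 6 arrays it ran from 9.20 on the pre-DC DMSO array to 7.76 on the mature DC SB202190 array, with DMSO above SB202190 at each stage. Anxa1 and S100a11 were not tested against each other.

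S100a4, which binds non-muscle myosin and is known for its role in cell movement, was highest in immature DC. Its values were 8.29 with DMSO and 8.18 with SB202190 in pre-DC, 9.47 and 8.82 in immature DC, and 8.40 and 8.74 in mature DC. The mature DC arrays lay above both pre-DC arrays and below both immature DC arrays, while the 2 arrays of immature DC differed by 0.65, more than those of any other stage of this gene. The first step of 0.91 (SE 0.24, limma adjusted p = 0.0229) fell to 0.53 (adjusted p = 0.14) without the immature DC DMSO array. The second step of -0.58 (SE 0.24, limma adjusted p = 0.14) did not pass, and it was -1.07 on the DMSO arrays and -0.09 on the SB202190 arrays.

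S100a6, also called calcyclin, changed little at the first step and was lowest in mature DC. It read 11.86 and 12.01 in pre-DC, 11.87 and 11.83 in immature DC, and 11.57 and 11.40 in mature DC, so the first 2 stages overlapped and the last lay below both. Neither step passed (-0.08, SE 0.14, and -0.37, SE 0.14, limma adjusted p = 0.117), but the second did without background correction (-0.35, adjusted p = 0.0431) and with trend and robust moderation (adjusted p = 0.0464). Over the whole course it fell by 0.45 on the log2 scale (SE 0.14, limma adjusted p = 0.033), a call that was lost without the pre-DC SB202190 array (adjusted p = 0.213), without the mature DC SB202190 array (0.159), without either immature DC array (0.0658) and without the detection filter (0.0549). Cacybp, which encodes a binding partner of calcyclin, fell at the first step by 0.59 (SE 0.13, limma adjusted p = 0.0133).

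S100a1, best known as a calcium sensor of heart muscle, had the largest rise of the 8 genes. It was 9.59 with DMSO and 9.10 with SB202190 in pre-DC, 11.41 and 10.71 in immature DC, and 11.30 and 11.07 in mature DC. Both later stages were far above pre-DC and overlapped each other. The first step was 1.72 (SE 0.16, limma adjusted p = 7.05e-04) and stood in all alternatives, and 4.78% of tested genes rose as much or more at that step. The second step of 0.12 (SE 0.16, limma adjusted p = 0.607) did not pass.

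S100a13, its head-to-head neighbour, rose less. The values were 9.94 and 10.08 in pre-DC, 10.65 and 10.46 in immature DC and 10.79 on both mature DC arrays, in rising order with no overlap between stages. The first step was 0.55 (SE 0.14, limma adjusted p = 0.0207), lost without the pre-DC DMSO array (0.43, adjusted p = 0.126), the immature DC DMSO array (0.42, adjusted p = 0.172) or the immature DC SB202190 array (0.68, adjusted p = 0.0616). From immature to mature DC it changed by 0.24 (SE 0.14, limma adjusted p = 0.271), and over the whole course by 0.79 (SE 0.14, limma adjusted p = 0.0043).

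The transcripts of both proteins that S100A13 is known to help export were also higher at the later stages. Il1a, the cytokine IL-1 alpha, rose by 2.08 at the first step (SE 0.25, limma adjusted p = 0.00162) and by 2.50 at the second (SE 0.25, limma adjusted p = 0.00329). Fgf1, a growth factor, was below background on both pre-DC arrays and was at least 1.63-fold higher in immature DC (limma adjusted p = 0.00955), and it rose by 0.71 to mature DC (SE 0.18, limma adjusted p = 0.0457).

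**Figure D2:**
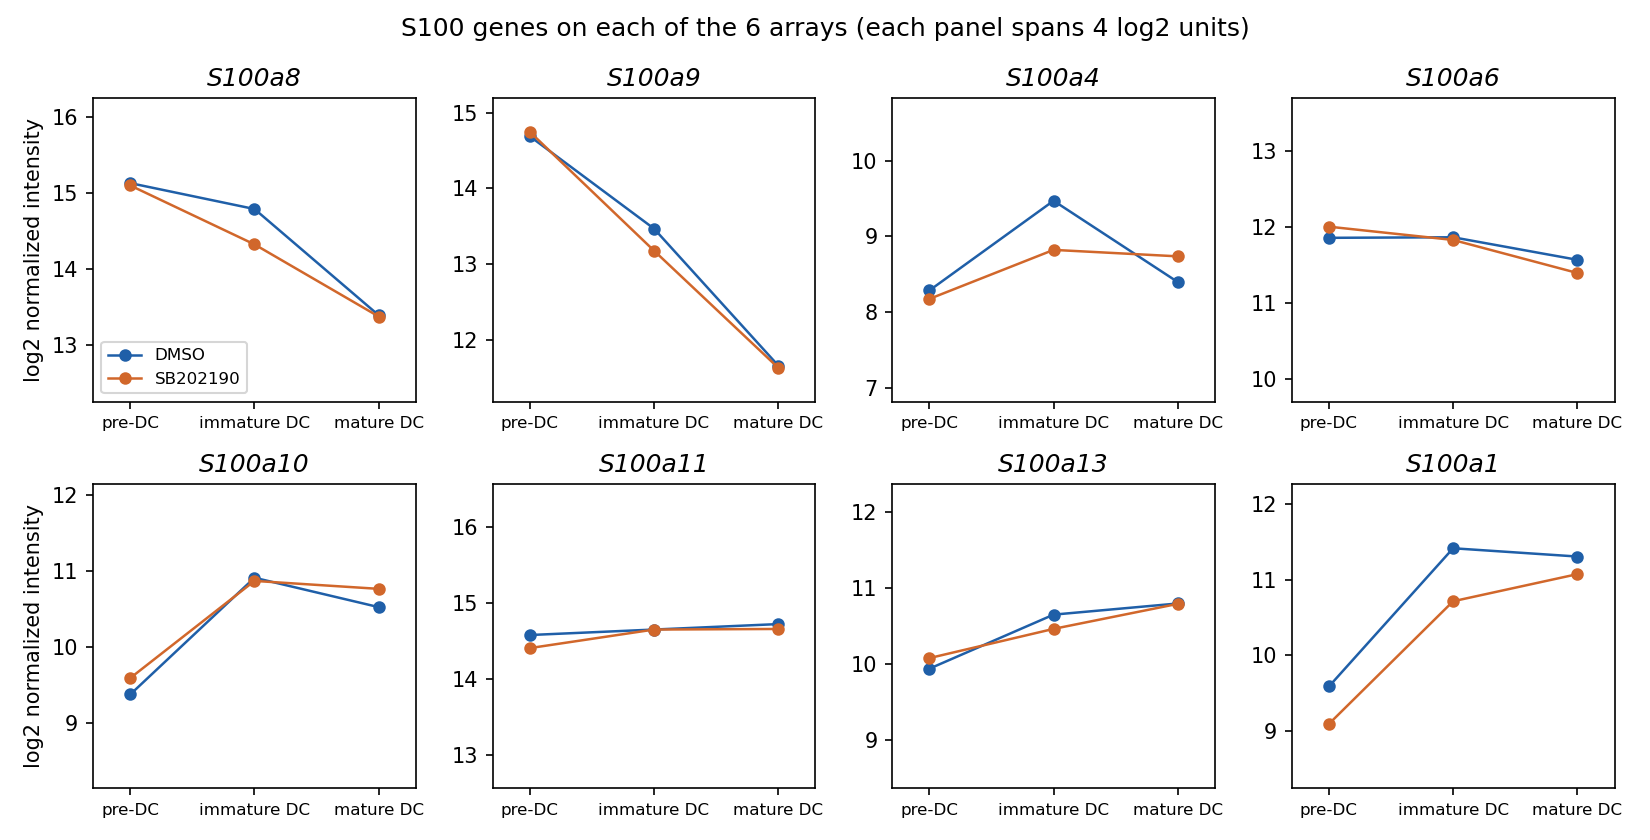
Normalized log2 intensity (y axis) of each of the 8 S100 genes on the 6 arrays, by stage (x axis), with DMSO in blue and SB202190 in orange; each point is 1 array and every panel spans 4 log2 units. S100a8 and S100a9 fall, S100a1, S100a10 and S100a13 are higher in both later stages, S100a4 is highest in immature DC, and S100a6 (11.40 to 12.01) and S100a11 (14.41 to 14.72) span the narrowest ranges with S100a13 (9.94 to 10.79).

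From immature to mature DC, where TNF-a and IL-1b were added, 2 of the 8 genes passed, S100a8 and S100a9, both lower. Without background correction or with trend and robust moderation S100a6 passed too, which made 3 lower. The test called 21.6% of all genes at this step, 10.5% higher and 11.1% lower, and the median of the 8 was -0.31 beside -0.01 over all genes. Both mature DC arrays lay below both immature DC arrays for 5 of the 8 genes (32.3% of all genes) and above them for 2 (29.2%). Over the whole course 6 of the 8 passed, 3 higher and 3 lower, against 61.2% of all genes, 30.8% higher and 30.4% lower. The steps share the immature DC arrays, so their values are not independent of each other.

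**Figure D3:**
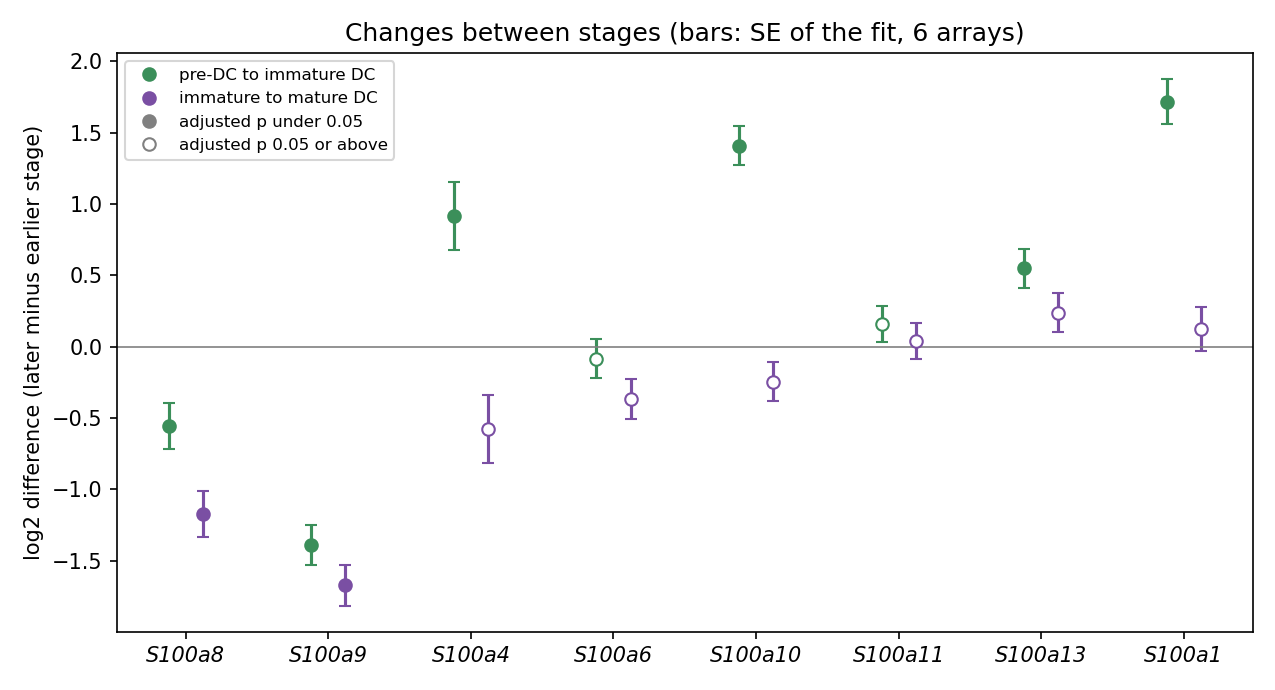
Fitted log2 difference between stages (y axis, later minus earlier) for each of the 8 genes (x axis), from pre-DC to immature DC in green and from immature to mature DC in purple; bars are the SE of the fit over 6 arrays and filled points had an adjusted p under 0.05. S100a9 is lowest at both steps (-1.39 and -1.67) and S100a1 is highest at the first (1.72).

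The remaining S100 genes were near background. Of 9 further S100 family or S100-named genes on the array, 6 were not tested: S100a3, S100a7a, S100a14, S100b, S100g and S100z were detected on no array. S100a5 was detected on the immature DC arrays alone, at a mean of 5.63, and was at least 1.10-fold lower in mature DC (limma adjusted p = 0.0163). S100a16 was detected on the mature DC arrays alone, at a mean of 5.56. It passed at the first step (limma adjusted p = 0.0261), but both stages of that step were below background, so no fold is given. S100pbp, which encodes an S100-binding protein, was detected on all arrays and did not pass at either step.

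Among the receptors, Tlr4, through which calprotectin signals, was 8.98 and 8.62 in pre-DC, 10.25 and 9.62 in immature DC, and 9.36 and 9.22 in mature DC. It rose at the first step by 1.14 (SE 0.16, limma adjusted p = 0.00272) and fell at the second by 0.64 (SE 0.16, limma adjusted p = 0.0403), so it was highest at the stage between those where S100a8 and S100a9 were highest and lowest. Ager, which encodes RAGE, lay between 5.59 and 6.38 on the 6 arrays and did not pass (-0.12, SE 0.17, and -0.31, SE 0.17). Cd36, a scavenger receptor, was detected on no array. Bsg, which encodes basigin, passed as higher in mature DC than in immature DC (1.06, SE 0.21, limma adjusted p = 0.0226), though it was below background on the DMSO arrays of the first 2 stages. Of the 5 receptors tested, 1 was called at the first step, higher, and 2 at the second, 1 in each direction, beside 51.0% and 21.6% of all genes called.

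Of the 14 tested partners of S100 proteins, 7 rose and 3 fell at the first step, and 3 rose and 1 fell at the second, beside 25.6% of all genes called higher and 25.5% lower at the first and 10.5% and 11.1% at the second. Anxa5 rose at both, by 0.81 and 0.62 (both SE 0.13), and Anxa11, an annexin that binds calcyclin, fell at the first by 0.89 on the log2 scale (SE 0.13, limma adjusted p = 0.00273). Of 10 other EF-hand calcium sensors, 2 rose and 1 fell at the first step, where 51.0% of all genes were called, and 2 fell at the second, where 21.6% were. Aif1, a macrophage actin-bundling protein also called IBA1, rose by 2.76 (SE 0.18) and then fell by 1.30 on the log2 scale (SE 0.18), and Gca, grancalcin of neutrophils, fell by 2.05 on the log2 scale (SE 0.15). Capns1, the small calpain subunit, rose by 0.62 at the first step (SE 0.16), and Plcg2, a phospholipase, fell by 0.72 on the log2 scale at the second (SE 0.18). The medians of the partners and of these sensors were 0.40 and 0.03 at the first step, beside 0.00 over all genes.

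SB202190 was compared with DMSO to ask how the S100 genes differ in cultures given the inhibitor. The activity of p38 itself was not measured on these arrays. Of the 8 genes, 7 had a mean difference below 0 across the 3 stages, but none passed. Those of S100a9, S100a4, S100a13 and S100a6 turned above 0 when the pair of 1 stage was left out. In limma with stage as a block, 0 of 9221 genes passed at all (0% called, smallest adjusted p 0.445), and 855 had an unadjusted p under 0.05. A treatment difference that varied between stages counted as error in this fit. Without either pre-DC array 41 genes passed, 19 higher and 22 lower, with none of the 8 among them, and 1 passed with trend and robust moderation. Among the 8, S100a1 alone was under that unadjusted level. Their median was -0.08 beside 0.01 over all genes.

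S100a1 was lower with SB202190 in all 3 pairs, by 0.49, 0.70 and 0.23 log2 units from pre-DC to mature DC, or 1.41-fold, 1.62-fold and 1.17-fold. The mean was -0.47 (SE 0.13, limma adjusted p = 0.469), and 1.88% of tested genes had a difference as low or lower. S100a8 was the other gene with all 3 pairs lower, at -0.03, -0.47 and -0.02, a mean of -0.17 (SE 0.13, limma adjusted p = 0.687). Being lower in all 3 pairs held for 2 of the 8 genes and for 15.1% of all tested genes, and being higher in all 3 for 0 of the 8 and 17.0% of all.

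Within a stage there was 1 array on each side, so no test was made. None of the 8 genes differed 2-fold in any stage, where 0.608% of genes did in pre-DC (0.158% higher and 0.450% lower with SB202190), 1.10% in immature DC (0.581% and 0.514%) and 1.88% in mature DC (0.917% and 0.962%). In the immature DC pair the differences were -0.70 for S100a1, -0.65 for S100a4, -0.47 for S100a8 and -0.29 for S100a9, each wider than in that gene's other pairs, and -0.04 for both S100a6 and S100a10. In the same pair, the summed intensity of the neutrophil and granule markers was 41602 with DMSO and 30491 with SB202190, and 18 of 20 such genes were lower with SB202190, with a median of -0.50. The monocyte markers had sums of 11671 and 7121 and were lower for 6 of 6. All 11 DC markers tested were higher with SB202190 in that pair, with a median of 0.74. In pre-DC, 17 of 20 neutrophil and granule markers were lower with SB202190 (median -0.15), and in mature DC 15 of 20 (-0.12). Monocyte markers were lower for 6 of 6 in pre-DC and 5 of 6 in mature DC. DC markers were higher for 6 of 11 in pre-DC and 11 of 11 in mature DC. Macrophage markers were lower for 4 of 8 in pre-DC, 3 of 8 in immature DC and 8 of 8 in mature DC. Their medians were -0.04, 0.07 and -0.36. Over the 8945 genes detected in the immature DC pair the median was 0.01. It was 0.02 over the 8882 genes of the pre-DC pair and -0.01 over the 8940 of the mature DC pair. The part of these markers in the S100 differences was not tested.

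In mature DC S100a8 and S100a9 differed by -0.02 and -0.03 between treatments, while S100a4 was 0.34 higher with SB202190. S100a10 was higher with SB202190 in pre-DC (0.22) and mature DC (0.24) but not in immature DC, with a mean of 0.14 (SE 0.11, limma adjusted p = 0.702). S100a6, S100a11 and S100a13 had means of -0.02, -0.08 and -0.02 (SE 0.11, 0.10 and 0.11). With single arrays behind every pair, differences of this size could not be told from the spread between arrays.

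**Figure D4:**
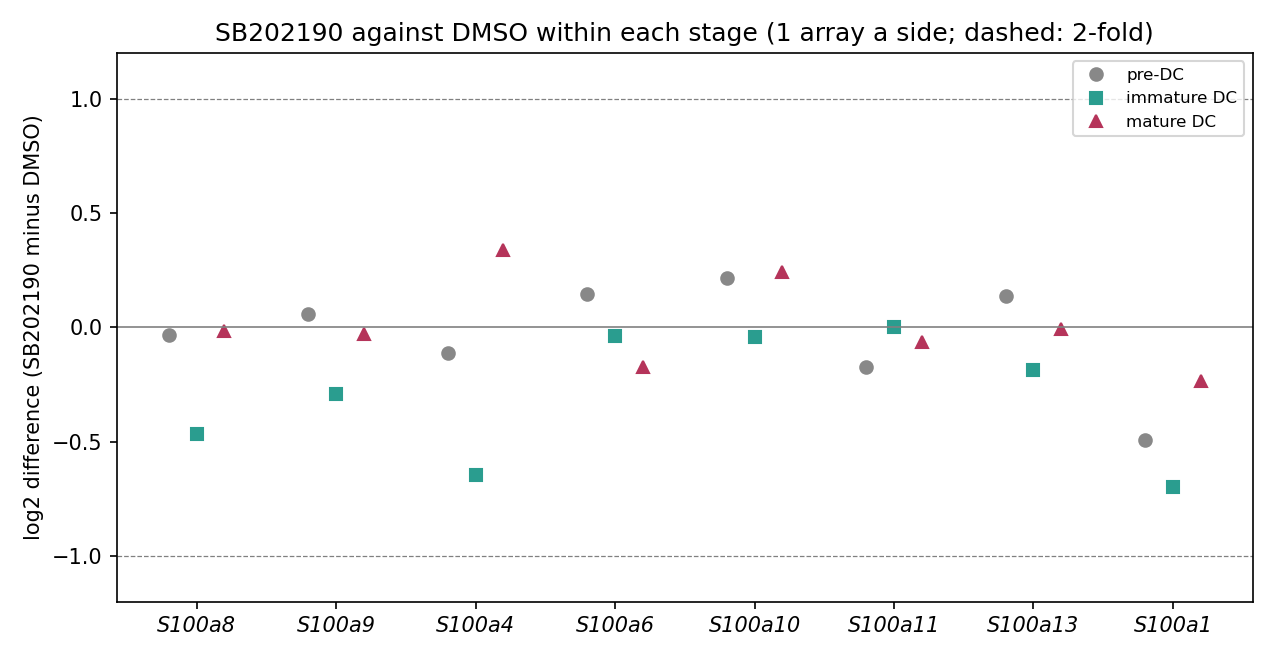
Log2 difference between the SB202190 and the DMSO array (y axis) within pre-DC (grey circles), immature DC (green squares) and mature DC (red triangles) for each of the 8 genes (x axis); the dashed lines mark 2-fold. All points lie between -0.70 and 0.34, and S100a1 is below 0 at all 3 stages.

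The 8 genes did not share 1 profile. The likeness of 2 genes was measured as the root mean square distance between their log2 values over the 6 arrays, each centred on its own mean. The values were not scaled, so this distance takes in the size of a change as well as its shape. The nearest of the other 7 genes was S100a8 for S100a9, at 0.55, S100a6 for S100a8, also at 0.55, and S100a13 for S100a10, at 0.36. Closest among all other tested genes were H2ax (0.04), 3110082I17Rik (0.07) and Qrsl1 (0.09) to S100a8, and Rad51ap1 (0.07), Spag5 (0.11) and Aurka (0.11) to S100a9. For S100a10 they were Slc25a35, Prkx and Arhgap18 (0.10 to 0.11), and for S100a1 Ecm1, Septin8 and Evl (0.12 to 0.16). For S100a4 they were Clec2l, Cyp51 and Tpmt (all 0.16), and for S100a13 Ube2a, Echs1 and Fbxo36 (0.06 to 0.07). Mtch1, Tmed10 and Ssr4 were nearest to S100a6 (0.03 to 0.04) and Gm12657, Srp14 and Golga5 to S100a11 (0.02 to 0.04). With 6 arrays and 9221 genes such neighbours are a description of these arrays.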

How the data were processed

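The data are 6 single-colour Illumina bead arrays of 45281 probes, with 14623 to 15328 probes detected on each. The authors deposited intensity values that were not normalized, with a detection p-value for each probe, per the file headers. They also deposited processed intensity values on a linear scale from -51.1 to 42993, with column medians of 7.85 to 7.89, whose method the labels and headers leave unstated. These served as an alternative, put on the log2 scale after values below 0 were set to 0 and 16 was added.

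Intensities were background-corrected with normexp of limma 3.58.1 in R 4.3.3 from the detection p-values, with an offset of 16, then quantile normalized and log2 transformed. Platform annotation gave 34885 probes 1 symbol, 18 several and 10378 none. The brightest probe stood for its gene. Detection was a p under 0.01, and 9221 genes detected on at least 2 arrays were tested. An additive limma model of stage and treatment had 2 residual degrees of freedom and a prior of 3.74, with Benjamini-Hochberg adjustment over all tested genes at 0.05. The labels name no separate cultures, so p-values measure only the spread between these arrays, which may be technical. With 1 array per combination, that spread includes any variation of the treatment difference between stages, which the model counts as error.

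A gene below background on both arrays of a stage has a bound, "at least N-fold", whose dim side is the lowest detected signal of the array, or the probe's own if that is higher. Levels of different probes are not compared, except in ranks, in percentages of the brightest probe and in marker sums. The 8 genes, the gene lists and the tests were chosen with earlier results of these data known. The named genes are the 8, the 3 nearest profiles of each, and Tlr4, Ager, Cd36, Anxa2 and Anxa1. From each list they also include up to 4 genes a direction that passed at a step. The neutrophil, granule, monocyte, macrophage and DC genes named besides were picked as markers after their values were seen. Alternatives covered background correction, offset, scaling, filter, probe choice, moderation, block and single arrays.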

Additional observations from a re-analysis of the deposited data

Results flagged for a closer look

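For 5 of the 8 genes, the difference between SB202190 and DMSO had opposite signs at 2 stages, with 1 pair of arrays at each, and none of these contrasts between stages was tested. S100a4 had -0.65 in immature DC and 0.34 in mature DC. S100a9 had -0.29 in immature DC and 0.06 in pre-DC. S100a6 had -0.17 in mature DC and 0.15 in pre-DC, S100a10 -0.042 in immature DC and 0.24 in mature DC, and S100a13 -0.19 in immature DC and 0.14 in pre-DC. Steps between stages also had opposite signs under the treatments for 2 genes, again untested. From pre-DC to immature DC, S100a6 had -0.17 with SB202190 and 0.01 with DMSO. From immature to mature DC, S100a1 had -0.11 with DMSO and 0.36 with SB202190.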

How the results depend on the processing

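Of 504 recomputed values of single genes in the tests, 469 kept direction and side of the threshold, 15 lost a call, 3 gained one and 17 turned sign. These are not all separate checks: for the treatment, leaving out either array of a stage or its whole pair gives the same result. All 120 recomputed differences within a stage moved by less than the residual SD. Those from the mean of all probes could not move, as each of the 8 genes has 1 probe. Without the pre-DC pair 41 genes passed for the treatment (19 higher, 22 lower, 0 of the 8), and with trend and robust moderation 1 passed, lower. Without the immature DC pair the treatment differences of S100a9, S100a4 and S100a13 turned to 0.014, 0.11 and 0.067, and without the mature DC pair that of S100a6 to 0.056. At the first step, 1 of the 8 genes was called lower in place of 2 with 75th percentile scaling and also without the detection filter. Leaving out single arrays gave these ranges. Treatment calls ran from 0 to 41 (higher 0 to 19, lower 0 to 22). First-step calls ran from 2591 to 4724 (higher 1365 to 2375, lower 1226 to 2349), with 2 to 4 of the 8 genes higher and 1 to 2 lower. Second-step calls ran from 575 to 2538 (higher 247 to 1246, lower 328 to 1292), with 1 to 2 of the 8 lower. S100a6 ran from -0.21 to 0.042 at the first step, S100a11 from -0.019 to 0.10 and S100a1 from -0.058 to 0.31 at the second, and S100a4 from -0.023 to 0.69 over the course. The treatment differences ran from -0.16 to 0.014 for S100a9, -0.38 to 0.11 for S100a4, -0.10 to 0.067 for S100a13 and -0.10 to 0.056 for S100a6. A fit with 1 array fewer also has 1 residual degree of freedom fewer, and the single array that remains is assumed to vary like the others; no other cause was tested. The labels give no replicate numbers; the treatment test paired the arrays by stage, and without the stage block 0 genes passed as well. The number of arrays limits precision.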
